A study of Mus musculus with 6 samples.

Results

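Alcohol dehydrogenases and aldehyde dehydrogenases were followed in the livers of mice that lack SRC-2 and of wild-type mice. SRC-2, the product of Ncoa2, is a coactivator that binds nuclear receptors and helps them to switch genes on. The set holds 10 genes, Adh1, Adh4, Adh5, Adh6-ps1, Aldh1a1, Aldh1a7, Aldh1b1, Aldh1l1, Aldh2 and Aldh3a2, out of 18193 genes with a probe set of their own on the array. All probe sets whose array annotation gives exactly one of these symbols were taken, 16 in all. Adh4 and Adh6-ps1 were picked from the change that they show in these same arrays, so their values are described without a test, while the other 8 genes stand for the family and were tested.

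Both groups were female mice on a C57 background. All were ovariectomized at 6 weeks of age and killed 2 weeks later under Avertin, an anaesthetic that is itself an alcohol, and the liver was flash frozen. Each genotype, SRC-2 null or wild-type, was measured on 3 arrays. The labels describe neither the null allele nor the feeding state. They also do not say whether the arrays of a genotype came from separate animals, so every p-value here reflects array-to-array spread that could be technical.

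Alcohol dehydrogenases use NAD+ to oxidise alcohols to aldehydes, and aldehyde dehydrogenases oxidise the aldehydes further to acids. Hepatocytes hold most of the body's capacity for both steps, which serve ethanol from the diet and also retinol, formaldehyde, folate carriers and long-chain fatty aldehydes. The members act in different compartments: Adh1, Adh4, Adh5, Aldh1a1 and Aldh1l1 encode cytosolic enzymes, Aldh2 and Aldh1b1 mitochondrial ones, and Aldh3a2 a membrane-bound one. Adh6-ps1 is annotated as a transcribed pseudogene, and no protein of it is assumed.

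The sequences before the transcription starts are shown for the alcohol dehydrogenase that was lower in null liver (Adh4), for both genes of the same cluster that encode abundant liver enzymes and did not pass the test (Adh1 and Adh5), and for the member that passed (Aldh1b1). Each is the 250 bases upstream of the start in RefSeq's promoter table (GRCm38.p6, all on the plus strand), with Adh4 at chr3:138415247-138415496, Adh1 at chr3:138277335-138277584, the first of 2 listed starts of Adh5 at chr3:138436950-138437199 and Aldh1b1 at chr4:45798772-45799021. Capitals mark the motifs searched, on both strands: AGGTCA, the half-site of many nuclear receptors, TTATGTAA, the letters of a D-box, and TATAAA, the letters of a TATA box.
Adh4: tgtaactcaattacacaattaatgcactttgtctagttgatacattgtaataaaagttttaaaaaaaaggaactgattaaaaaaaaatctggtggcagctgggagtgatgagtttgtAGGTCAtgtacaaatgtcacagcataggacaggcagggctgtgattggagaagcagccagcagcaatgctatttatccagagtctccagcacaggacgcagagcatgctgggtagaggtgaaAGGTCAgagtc
Adh1: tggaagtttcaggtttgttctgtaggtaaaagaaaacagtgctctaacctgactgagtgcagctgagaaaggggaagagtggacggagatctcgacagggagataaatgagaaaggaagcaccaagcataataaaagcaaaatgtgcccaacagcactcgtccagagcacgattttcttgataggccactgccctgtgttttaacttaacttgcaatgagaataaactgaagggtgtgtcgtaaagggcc
Adh5: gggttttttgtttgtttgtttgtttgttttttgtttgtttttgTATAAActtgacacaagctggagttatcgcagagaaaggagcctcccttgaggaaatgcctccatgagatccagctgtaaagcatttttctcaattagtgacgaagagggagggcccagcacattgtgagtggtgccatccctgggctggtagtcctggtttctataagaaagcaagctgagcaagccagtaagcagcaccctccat
Aldh1b1: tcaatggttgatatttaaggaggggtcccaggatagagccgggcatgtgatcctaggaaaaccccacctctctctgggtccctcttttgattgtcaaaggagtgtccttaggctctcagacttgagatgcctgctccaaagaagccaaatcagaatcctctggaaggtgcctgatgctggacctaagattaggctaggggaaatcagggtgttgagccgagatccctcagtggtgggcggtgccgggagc

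The Adh4 window holds AGGTCA on its plus strand at 2 places, which begin 133 and 11 bases before the start. Among the 32851 windows of this length in the table, 14.0% hold AGGTCA on either strand and 1.34% hold it more than once. The window of the first Adh5 start holds TATAAA 207 bases before the start, a motif found in 12.4% of all windows, and the Adh1 and Aldh1b1 windows hold none of the motifs. The window of the second listed start of Adh5, which is not shown and is 63.6% G or C, holds none of them either. Of the 8 members in the table, Aldh1l1 had the only other AGGTCA, on the minus strand 178 bases before its start, Aldh1a7 had TATAAA, and no member's window had TTATGTAA, found in 0.819% of all. Aldh2 and Adh6-ps1 were not in the table. A match to these letters is a description of the sequence, not evidence of a bound site.

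Values are log2 expression values, so a difference of 1 is a doubling. On its brightest probe set Ncoa2 itself was lower on every null array, at 7.74, 7.92 and 8.53 in wild-type and 5.60, 5.44 and 5.86 in null liver (limma adjusted p = 0.000353). Of its other 3 probe sets 1 was also lower, with a difference of -2.16, and the other two, at -0.27 and 0.07, overlapped between genotypes and did not pass. A gene passed when its limma p-value, adjusted by Benjamini-Hochberg over all 11894 genes tested, was under 0.05. Over all genes the median difference was 0.0026, and 4.67% passed, 1.55% higher and 3.13% lower in null liver. Replicate 3 stood apart from replicates 1 and 2 in both genotypes, so differences within replicates are given below. Markers of hepatocytes did not pass (0 of 9 in limma, 0 also at an unadjusted p under 0.05), with summed linear levels of 107121 to 108397 in wild-type and 106878 to 108318 in null liver. Markers of macrophages fell in 13 of 14 cases, with summed linear levels of 5390 to 5633 in wild-type and 2562 to 2795 in null liver.

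Across the dehydrogenase family 1 of 8 tested members passed, and it was higher in null liver. This was Aldh1b1. The other 7 did not pass, with differences between -0.17 and 0.06, and 1 of 8 had an unadjusted p under 0.05. The median difference over the 8 genes was -0.04 and the median size of the difference was 0.11, the same as the median size of 0.11 over all genes tested. In 4 of 8 members (Adh1, Aldh1a1, Aldh1b1 and Aldh2) the null arrays did not overlap the wild-type arrays, against 23.4% of all tested genes.

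**Figure D1:**
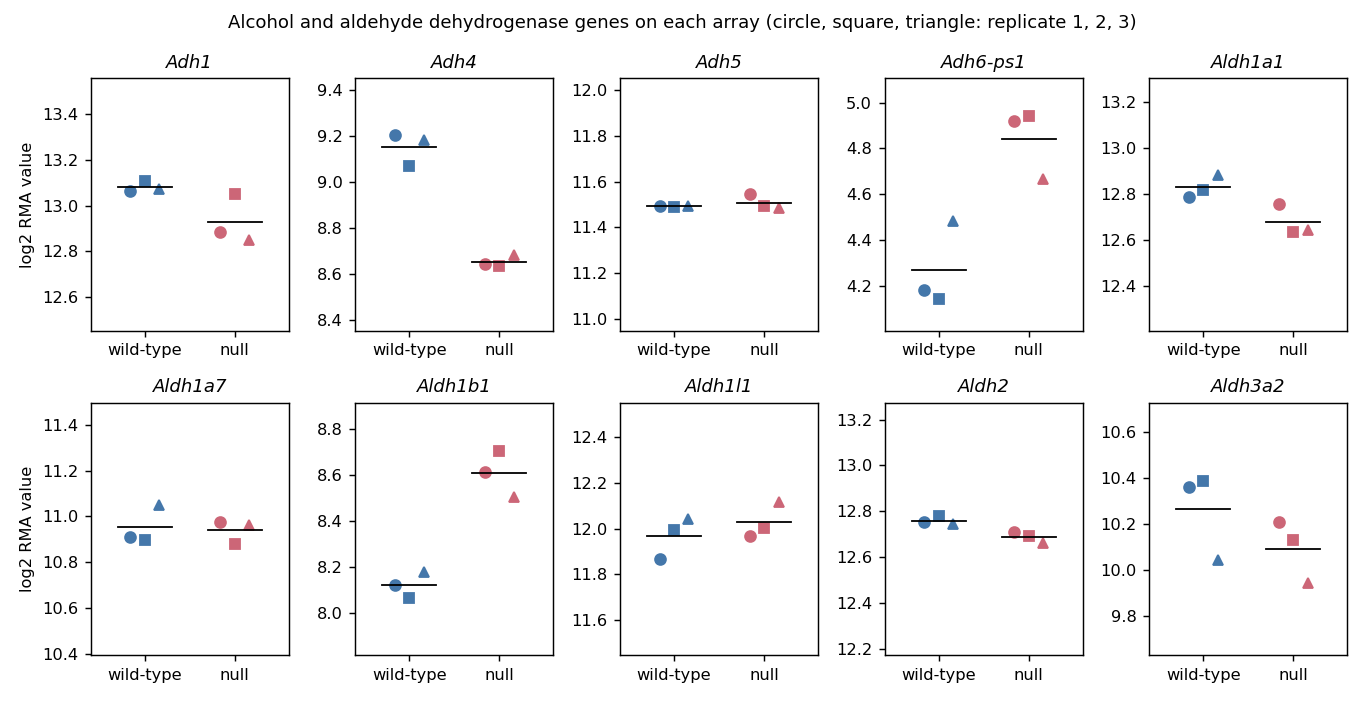
Log2 RMA value (y axis) of each member on the 3 wild-type (blue) and 3 SRC-2 null (red) arrays, with circle, square and triangle for replicates 1, 2 and 3 and a line at the group mean. Every panel spans the same width of the log2 scale. The groups stand apart most for Aldh1b1 and for Adh4 and Adh6-ps1, which were picked from their change in these same arrays.

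Among the alcohol dehydrogenases, Adh4 was lower in null liver. It encodes a class II enzyme that oxidises retinol, medium-chain alcohols and, at high concentration, ethanol. It read 9.21, 9.07 and 9.18 in wild-type liver, against 8.64, 8.63 and 8.68 in null liver. Both groups were tight and far apart, since the null arrays lay within 0.05 of each other and all below the lowest wild-type array. The means were 9.15 ± 0.07 (SD, n = 3) and 8.65 ± 0.03 (SD, n = 3), a 1.42-fold lower level in null liver. Within replicates 1, 2 and 3 the differences were -0.57, -0.44 and -0.50, so the one in replicate 3 was between the other two. Adh4 was picked from this change, and no test is given for it.

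Adh1 encodes the class I enzyme that oxidises most ethanol in liver. Its wild-type arrays read 13.06, 13.11 and 13.07 and its null arrays 12.89, 13.05 and 12.85. All null arrays were below the wild-type arrays, least so in replicate 2, where the difference was -0.06 against -0.18 and -0.22 in replicates 1 and 3. The difference of -0.15 (SE 0.09, limma adjusted p = 0.425) did not pass, and its 95% interval ran from -0.35 to 0.04.

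Adh5 encodes the class III enzyme, which removes formaldehyde bound to glutathione and reduces S-nitrosoglutathione. It had the smallest spread of the 10 members in wild-type liver (SD 0.0014). All wild-type arrays read 11.49, against 11.54, 11.49 and 11.49 in null liver, a difference of 0.02 with a 95% interval of -0.16 to 0.19 (limma adjusted p = 0.948). The groups overlapped. A dimmer probe set of Adh5 had means of 3.54 and 3.63 and lay below the filter on dim values.

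Adh6-ps1 was higher in null liver, the opposite direction to Adh4 beside it in the gene cluster. It read 4.18, 4.14 and 4.48 in wild-type liver, against 4.92, 4.94 and 4.67 in null liver. Replicate 3 was the highest wild-type array and the lowest null array, and the groups did not overlap. The means of 4.27 ± 0.18 (SD, n = 3) and 4.84 ± 0.15 (SD, n = 3) differ 1.49-fold. Within replicates 1 and 2 the differences were 0.73 and 0.80, and within replicate 3 the difference was 0.18. Wild-type replicates 1 and 2 lay below 4.21, the mean under which a gene was left out of the tests, so this is a dim signal. This gene too was picked from its change and has no test, and whether its probe set also detects the neighbouring Adh6a or Adh6b was not tested.

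These alcohol dehydrogenase genes lie next to each other on mouse chromosome 3, in the order Adh7, Adh1, Adh6a, Adh6b, Adh6-ps1, Adh4, Adh5. Leaving out the picked pair, 0 of the 7 tested genes of the cluster and its neighbours passed in limma, and 0 of them had an unadjusted p under 0.05. Adh7, a class IV enzyme of retinol oxidation best known from the stomach, had a difference of 0.12 (limma adjusted p = 0.575). Adh6a (3.41 in wild-type and 3.38 in null liver) and Adh6b (3.87 and 3.95) were too dim to test. On the side of Adh7, Mttp, which loads lipid onto lipoproteins, had a difference of -0.10 and the tRNA methyltransferase gene Trmt10a one of -0.04. On the side of Adh5, the aminopeptidase gene Metap1 had -0.01 and Eif4e, which binds the mRNA cap, 0.12. The adjacent Adh6-ps1 and Adh4 thus differed in opposite directions, and Adh5 on the other side of Adh4 had a difference near 0.

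**Figure D2:**
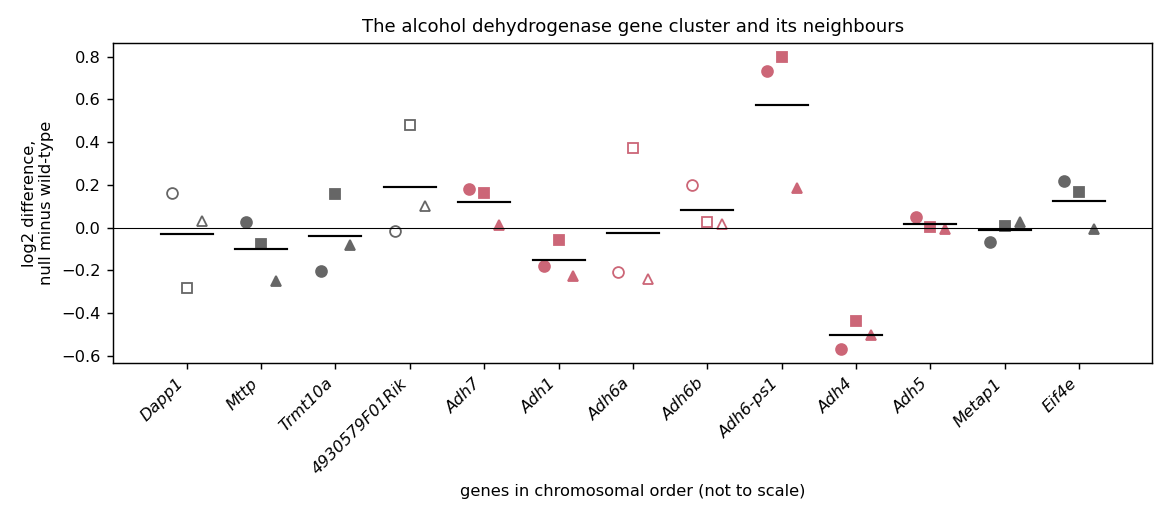
Log2 difference between SRC-2 null and wild-type liver (y axis) for the alcohol dehydrogenase genes (red) and their neighbours (grey) in chromosomal order, as the difference within replicate 1 (circle), 2 (square) and 3 (triangle) and their mean (line). Open symbols are genes too dim to test; Adh6-ps1 at 0.57 and Adh4 at -0.50 stand on either side of 0.

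Among the aldehyde dehydrogenases, Aldh1b1 rose 1.40-fold in null liver. It encodes a mitochondrial enzyme that oxidises acetaldehyde and other short aldehydes and can also act on retinal. It read 8.12, 8.07 and 8.18 in wild-type liver, against 8.62, 8.71 and 8.51 in null liver. Every null array was above every wild-type array. The means were 8.12 ± 0.06 (SD, n = 3) and 8.61 ± 0.10 (SD, n = 3), a difference of 0.49 (SE 0.09, 95% interval 0.29 to 0.69, limma adjusted p = 0.0177). Within replicates 1, 2 and 3 it was 0.49, 0.64 and 0.33, and with replicates 1 and 2 alone the adjusted p was 0.0383. The call was lost when replicate 1 or 2 of wild-type liver was omitted (limma adjusted p = 0.0660 and 0.0947), and likewise for replicate 1 or 2 of null liver (0.0672 and 0.0816), with differences of 0.44 to 0.54 over all 6 omissions.

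Aldh2 encodes the other mitochondrial member and is the main acetaldehyde dehydrogenase of liver. Its brightest probe set read 12.75, 12.78 and 12.74 in wild-type and 12.71, 12.69 and 12.66 in null liver. The null arrays were all lower, by a small step. The difference of -0.07 (95% interval -0.24 to 0.10, limma adjusted p = 0.702) did not pass. The other 4 probe sets of Aldh2 were much dimmer and had differences from -0.19 to 0.18, none of which passed. The difference between the mitochondrial pair was set out within arrays: the value of Aldh1b1 minus that of Aldh2 was -4.63, -4.71 and -4.57 in wild-type and -4.09, -3.98 and -4.16 in null liver, a shift of 0.56 with no overlap. An exact permutation test of 3 arrays against 3 cannot give a two-sided p under 0.1, and Aldh1b1 was already singled out by its own test, so this shift is given as a description.

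Aldh1a1 encodes the cytosolic enzyme that turns retinal into retinoic acid, and Aldh1a7 is its close relative on the same chromosome. Aldh1a1 read 12.79, 12.82 and 12.88 in wild-type and 12.76, 12.63 and 12.64 in null liver. The null arrays were all lower, with a difference of -0.03 within replicate 1 and of -0.18 and -0.24 within replicates 2 and 3. The difference of -0.15 (95% interval -0.34 to 0.04, limma adjusted p = 0.404) did not pass. Aldh1a7 read 10.91, 10.90 and 11.05 in wild-type and 10.98, 10.88 and 10.96 in null liver, with overlapping groups. Its difference was -0.01 (95% interval -0.21 to 0.18, limma adjusted p = 0.966).

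The sequences before the starts of Aldh1a1 and Aldh1a7 are shown because they are nearly the same close to the start, as the pair most alike among the members. The last 100 bases before the second listed start of Aldh1a1 (chr19:20601868-20601967, plus strand) and before the start of Aldh1a7 (chr19:20727557-20727656, minus strand; RefSeq, GRCm38.p6) are written 5′ to 3′, with the 6 differing positions in capitals.
Aldh1a1: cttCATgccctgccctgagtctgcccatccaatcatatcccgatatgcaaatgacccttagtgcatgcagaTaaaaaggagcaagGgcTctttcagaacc
Aldh1a7: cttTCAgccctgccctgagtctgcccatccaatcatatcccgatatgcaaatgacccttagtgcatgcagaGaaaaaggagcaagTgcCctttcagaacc

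At 94 of 100 positions the bases are the same, and over the whole 250 bases 175 can be aligned as identical. Aligned in the same way with gaps, the median over all pairs compared was 122 of 250, and the next highest pair had 145. The first listed start of Aldh1a1 shared only 30 of 100 with Aldh1a7, and the next most alike pair compared, Aldh1l1 and Aldh3a2, shared 36 of 100. Whether the probe sets tell the transcripts of Aldh1a1 and Aldh1a7 apart was not tested.

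Aldh1l1 encodes a folate enzyme that turns formyltetrahydrofolate into tetrahydrofolate and carbon dioxide. It read 11.87, 12.00 and 12.04 in wild-type and 11.97, 12.00 and 12.11 in null liver. The groups overlapped, and the difference of 0.06 (95% interval -0.14 to 0.26, limma adjusted p = 0.800) did not pass. A second, dimmer probe set differed by -0.16 and did not pass, so the sign depended on the probe set.

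Aldh3a2 encodes fatty aldehyde dehydrogenase, which oxidises long-chain aldehydes from ether lipids, phytol and sphingolipids. It read 10.36, 10.39 and 10.04 in wild-type and 10.21, 10.13 and 9.94 in null liver. Replicate 3 was the lowest array of both genotypes, and the groups overlapped through wild-type replicate 3. The difference of -0.17 (95% interval -0.45 to 0.10, limma adjusted p = 0.542) did not pass, although null was lower within every replicate (-0.15, -0.26 and -0.10). Its interval was the widest of the tested members.

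**Figure D3:**
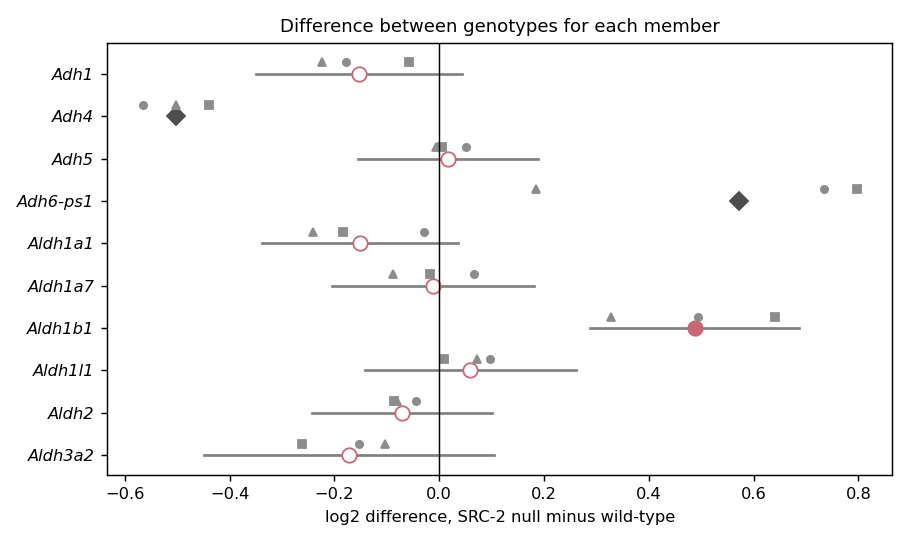
Log2 difference between SRC-2 null and wild-type liver (x axis) for each member, with its 95% interval from limma for the tested genes (circles, filled where the gene passed), diamonds for Adh4 and Adh6-ps1, which have no test, and small symbols for replicates 1 (circle), 2 (square) and 3 (triangle). Only the interval of Aldh1b1, 0.29 to 0.69, lies apart from 0.

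For the 7 members that did not pass, the 95% intervals reached at most 0.45 from 0, or 1.37-fold, a bound set by Aldh3a2. The interval of Adh5 ended at 0.19, and that of Aldh2 at -0.24. When every probe set was tested on its own, 1 of the 13 probe sets of the tested members that lay above the filter passed, that of Aldh1b1 (limma adjusted p = 0.0391), against 2.41% of all probe sets. The count was 0 whichever of the 6 arrays was omitted, and 0 also without the filter or with replicates 1 and 2 alone.

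Other genes of the same superfamilies and of the pathways around them were taken from lists by function. Over these lists 68 genes were tested, of which 9 (13.2%) passed, 4 higher and 5 lower, against 4.67% of all genes. The lists were chosen with earlier results of these data known, so these shares are set side by side only as a description. Omitting single arrays gave counts of 3 to 7, and replicates 1 and 2 alone gave 4. Among the other alcohol dehydrogenase genes, 0 of 2 tested passed in limma (0 at an unadjusted p under 0.05), and Adhfe1, a hydroxyacid-oxoacid transhydrogenase, had a difference of 0.18. Among the other aldehyde dehydrogenases 1 of 10 rose, with 8 of 10 above 0 and a median of 0.15. Aldh7a1, which acts in lysine breakdown, rose 1.26-fold from 10.96 ± 0.04 to 11.30 ± 0.02 (SD, n = 3; limma adjusted p = 0.0434), a call lost whichever array was left out (0.0963 to 0.151) and, with the mean of its 3 probe sets, at 0.362. The call was lost also without the filter (0.0779), with replicates 1 and 2 alone (0.119) and with every probe set tested on its own (0.0835). Aldh9a1, of carnitine synthesis, had a difference of 0.27 and did not pass (limma adjusted p = 0.198), but passed with a term for replicate 3 against 1 and 2 (0.0495). Aldh1a2, a retinal dehydrogenase, lay below the filter at 3.03 and 3.09.

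Retinoid metabolism is shared ground for Adh1, Adh4 and Aldh1a1. Of 19 tested genes of this list 2 passed as lower and 0 as higher in null liver. At an unadjusted limma p under 0.05 there were 8 of 19. Differences were above 0 in 9 of 19, and the median was -0.01. Rdh9, a short-chain retinol and steroid dehydrogenase, read 10.25, 10.20 and 10.28 in wild-type and 8.78, 8.54 and 8.73 in null liver. It fell 2.95-fold (limma adjusted p = 4.89e-05), more than any of the 10 members differed, on a probe set of a type that can detect several transcripts. Cyp26a1, the hydroxylase that clears retinoic acid, read 8.79, 8.80 and 8.92 in wild-type and 7.79, 7.79 and 7.86 in null liver. It fell 2.03-fold (limma adjusted p = 0.000271). Both calls held whichever array was left out.

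Among other enzymes that reduce or oxidise carbonyl groups, 6 of 14 were above 0 and 6 of 14 had an unadjusted limma p under 0.05. None (0 of 14) passed as higher in null liver, and 3 of 14 passed as lower. These were the aldehyde oxidase gene Aox3 (1.48-fold), Akr1c6 (1.34-fold), an aldo-keto reductase that acts on steroids, and Akr1b10 (1.39-fold). Akr1b10, also an aldo-keto reductase, was dim, at 4.95 in wild-type and 4.48 in null liver. Its dimmer probe sets lay below the filter, with overlapping groups and differences of -0.13 and 0.07. Over the 6 omissions of single arrays Aox3 kept its call in 3 and Akr1c6 and Akr1b10 each in 1, with limma adjusted p-values of 0.0220 to 0.0762 for Aox3, 0.0409 to 0.0935 for Akr1c6 and 0.0468 to 0.153 for Akr1b10. Akr1b10 also lost the call without the filter (0.0642), with the mean-variance trend (0.0560) and with every probe set tested on its own (0.0895). With replicates 1 and 2 alone Akr1c6 and Akr1b10 lost it (limma adjusted p = 0.0762 and 0.155), while Aox3 kept it (0.0399). Of the folate enzymes around Aldh1l1, 3 of 14 passed as higher in null liver and 0 as lower. Differences were above 0 in 12 of 14, and 5 of 14 had an unadjusted limma p under 0.05. Mthfd1l, which makes formate in mitochondria, rose 1.62-fold from 4.85 ± 0.06 to 5.54 ± 0.08 (SD, n = 3; limma adjusted p = 0.00271). This too was a dim signal, with a mean of 5.20 over all arrays. The alternative with genes of a mean of at least 6 therefore left Mthfd1l out. Ftcd, an enzyme of histidine breakdown that passes one-carbon units to folate, rose 1.36-fold, and Gldc, of glycine cleavage, 1.33-fold. Ftcd and Gldc each lost the call in 5 of 6 omissions, while Mthfd1l kept it in all 6. With replicates 1 and 2 alone Ftcd and Gldc lost it as well (limma adjusted p = 0.0682 and 0.0858), while Mthfd1l kept it (0.0267). Gldc also lost the call without the filter (0.0591) and with every probe set tested on its own (0.0766).

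The other routes of ethanol and acetate, with 4 genes tested, and fatty aldehyde and formaldehyde handling, with 5, had 0 genes that passed in limma and 1 and 0 at an unadjusted p under 0.05. Cyp2e1, the cytochrome P450 of ethanol oxidation, had a difference of 0.10 (limma adjusted p = 0.707). Acss2, which joins acetate to coenzyme A, had one of -0.29 with groups that did not overlap (limma adjusted p = 0.0880). It passed with a term for replicate 3 against 1 and 2 (0.0430), with genes of a mean of at least 6 (0.0438) and with a mean-variance trend (0.0330), and its adjusted p over the other alternatives was 0.0655 to 0.309. Near Aldh3a2, the phytanic acid enzyme gene Phyh had 0.17 and the sphingosine phosphate lyase gene Sgpl1 -0.19.

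**Figure D4:**
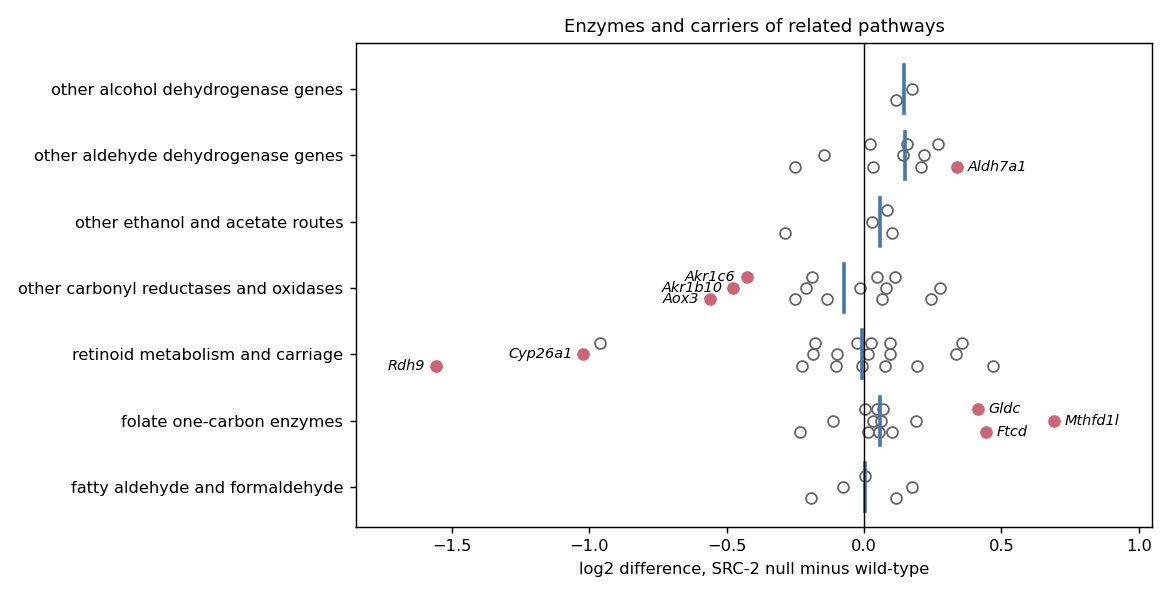
Log2 difference between SRC-2 null and wild-type liver (x axis) for the tested genes of each related list (rows), filled and named where the gene passed, with a blue bar at the list's median. The medians lie between -0.07 and 0.15, and Rdh9 and Cyp26a1 lie farthest to the left among the genes that passed.

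Several markers of zone and cell type moved beside these differences. Of 8 pericentral hepatocyte markers 2 fell, Glul (glutamine synthetase, 1.40-fold) and Cyp1a2 (1.66-fold), and the summed linear level was 29765 to 32589 in wild-type and 27568 to 31326 in null liver. The median of this list was -0.29, while 2 of the 8, Oat at 0.17 and Cyp2e1 at 0.10, were above 0 and did not pass. Of 5 periportal markers 2 rose, Hal (histidine ammonia-lyase, 1.55-fold) and Arg1 (arginase, 1.30-fold), with sums of 20586 to 21659 and 23332 to 24702. In this list 3 of 5 were above 0, while Pck1 at -0.11 and Cyp2f2 at -0.02 were below 0 and did not pass. Of the macrophage markers, Marco fell 5.10-fold, Cd5l 2.22-fold and Clec4f 1.97-fold, and Fcgr1, at a difference of -0.92, did not pass. Of 2 adipocyte markers tested 1 rose, Fabp4 (3.31-fold), and Retn, at a difference of 0.30, did not pass. Adipoq, at 2.97 in wild-type and 5.10 in null liver, and Lep, at 2.74 and 2.82, were too dim on average to test. The summed linear level of these 4 genes was 120 to 154 in wild-type and 350.0 to 400.3 in null liver. Of the other cell types, 1 of 9 stellate markers rose (4 at an unadjusted p under 0.05), but only 3 of 9 were above 0 and their median was -0.10. Among cholangiocyte markers 1 of 3 fell (2 at an unadjusted p under 0.05), but 2 of 3 were above 0 and the median was 0.18. For stomach or intestine 1 of 3 tested markers rose, Fabp2 (1.33-fold), which already read 8.65 in wild-type liver. With 3 of 3 above 0, Tff1 and Adh7, itself a gene of the cluster, did not pass. Gkn1 and Vil1 were too dim to test. Among endothelial markers 0 of 7 passed in limma (1 at an unadjusted p under 0.05). On arrays no marker reads 0. The part of any of these in the dehydrogenase differences was not tested, and in whole liver fewer cells of a type and less RNA per cell cannot be told apart. Alb and Apoa1, which mark hepatocytes, differed by -0.02 and 0.02. Both lay near the top of the scale, at 14.44 and 14.19 in wild-type liver, where the highest value of an array was 14.45 to 14.60. Whether such bright probe sets could still show a change was not tested.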

How the data were processed

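Liver RNA was labelled with biotin, per the labels. The authors deposited log2 values for 45101 probe sets, 1 column per array. The submitters' processing notes name RMA, robust multi-array averaging, and its version and probe definitions are not given in the sources. RMA can compress the folds of dim genes, and the number of arrays limits the precision.

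Gene names came from the platform annotation. Each gene was represented by its brightest probe set (mean of the 6 arrays) among 34945 with 1 symbol, and genes with a mean of at least 4.21, the median of all probe sets, were tested. Genotypes were compared with limma 3.58.1 in R 4.3.3 (lmFit and eBayes, two-sided, genotype as the only term), with p-values adjusted over all genes, and tested on simulated data. Fold changes are 2 to the power of the log2 difference of means. Probe sets ending in _s_at, _x_at or _a_at can detect several transcripts. Summed levels add 2 to the power of each value.

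Deviations from the group means correlated between same-numbered arrays (r = 0.18, 0.20 and 0.52 for replicates 1, 2 and 3), all above 0.1, so by the rule used the numbers were taken as pairs in an alternative fit. Replicates 1 and 2 correlated as well across numbers (0.21 and 0.17), so the pairing rests on replicate 3. Wild-type and null replicate 3 correlated below 0 with the other replicates of the other genotype (-0.27 to -0.34). Deviations sum to 0 within each genotype, so values below 0 beside the 0.52 of replicate 3 follow in part from the calculation and are not a separate observation.

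The members, the lists and the tests were chosen with earlier results of these data known. Named were all members, Ncoa2, the genes that passed in each related list (up to 6) or otherwise the 2 with the smallest p, the cluster's neighbours and the markers needed to describe a list. In the related lists 85 genes were matched, and the others were not analysed here. Motifs were searched in the 250 bases before each start, in the Adh cluster by rule and in the other members in addition, after values were seen. Proteins were not compared. Figures were drawn with matplotlib 3.10.9.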

Additional observations from a re-analysis of the deposited data

How the results depend on the processing

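Alternatives were another filter, another choice of probe set, a second quantile normalization, a mean-variance trend, blocks and the omission of arrays. The replicate block gave 832 genes passing against 556, 11 related enzymes against 9 and 1 family member as before, and changed no call among the members, related enzymes and cluster neighbours named (markers and Ncoa2 were not refitted). A term for replicate 3 gave 982 genes and 14 related enzymes, replicates 1 and 2 alone 329 and 4, and testing every probe set on its own 362 genes. Omitting single arrays gave 275 to 438 genes, 3 to 7 related enzymes, 0 to 1 family members and 0 to 0 family probe sets. No family probe set passed without the filter (0) or with replicates 1 and 2 (0), against 1. Signs of differences near 0 changed: Adh5 ran from -0.0012 to 0.027 over omissions and was -0.0057 in replicate 3, Aldh1a7 ran from -0.040 to 0.036 and was 0.025 in replicates 1 and 2, and Aldh1l1 was -0.048 with the mean of its probe sets. Trmt10a ran from -0.15 to 0.027, with 0.0091 for the mean of its probe sets, and Metap1 from -0.050 to 0.045, with 0.027 after the second normalization. Acss2 and Aldh9a1 passed only under alternatives given beside them. The cause of these changes was not tested.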
